A study of Mus musculus with 8 samples.

Results

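Markers of cortical layers and of projection neurons were followed through RNA of the orbital frontal cortex, the prefrontal area that weighs the value of outcomes. The 44 genes were taken by symbol from a list of such markers. The rule used no measured value, but the list was chosen with earlier results of these data known. All 44 were found among the 13130 genes of the gene table, and all passed the filter of a mean of at least 0.5 FPKM (read fragments divided by transcript length and by the library's mapped fragments). By their best-known layer they were divided into 12 genes of the upper layers, 11 of layer 5, 12 of layers 6 and 6b, and 9 that mark several layers or projection neurons in general. The knockdown group held 4 libraries from mice with hairpin RNAs directed at circHomer1/Homer1b, and the control group 4 libraries from mice with a scrambled hairpin. All mice were C57BL/6 at 12 weeks of age. The labels give neither the vector and cells that carried the hairpins, nor which knockdown library received the hairpin against the circular RNA, against Homer1b or against both. They also do not tie each library to an animal of its own, so the p-values rest on a spread between libraries that may be technical.

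The neocortex is built of layers whose excitatory neurons are born in sequence and send their axons to different places. Upper-layer neurons connect cortical areas with each other, many layer 5 neurons project to the brainstem, spinal cord and striatum, and many layer 6 neurons project to the thalamus, while layer 6b holds survivors of the early subplate. Transcription factors such as CUX1 and CUX2 in the upper layers, FEZF2 and BCL11B in layer 5, and TBR1 and TLE4 in layer 6 set these identities and stay on in adult neurons. In bulk tissue the summed level of such a marker also follows how much of each layer a dissection contains, and fewer cells of a type and less RNA per cell cannot be told apart.

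The libraries had summed gene levels of 214316 to 224323 FPKM, and their read depth is unknown. Homer1, the targeted gene, measured 18.9, 16.5, 16.6 and 19.3 FPKM in knockdown libraries 1 to 4, against 23.5, 26.3, 21.3 and 18.9 FPKM in control libraries 1 to 4, so control library 4 lay at the knockdown level. The Homer1 log2 difference was -0.31 (limma, adjusted p = 0.273). These values are of the whole gene and show neither the circular RNA nor Homer1b by itself. Genes used as markers of neighbouring tissue differed in level between libraries. Whether this came from the dissection or from the knockdown was not tested. The 20 striatal projection neuron genes summed to 293, 499, 602 and 239 FPKM in knockdown libraries 1 to 4, against 989, 630, 876 and 315 FPKM in control libraries 1 to 4. All 20 had a lower mean in the knockdown group, by a median log2 difference of -0.78, and 2 had an unadjusted p under 0.05, with none past the adjusted threshold (limma). The 10 oligodendrocyte genes, which mark white matter, summed to 737, 1128, 1282 and 634 FPKM in the knockdown libraries, and to between 945 and 1187 FPKM in the control libraries. All 10 had a lower mean in the knockdown group, by a median of -0.23, and none had an unadjusted p under 0.05. Striatal sums were thus low in knockdown libraries 1 and 4 and in control library 4, and oligodendrocyte sums in knockdown libraries 1 and 4. Of 6 olfactory bulb genes, 4 passed the filter, and they summed to 5.74, 6.25, 6.09 and 29.2 FPKM in knockdown libraries 1 to 4, and to between 5.33 and 6.78 FPKM in the control libraries. Among them Cdhr1 stood at 9.93 FPKM in knockdown library 4 and at 0.42 to 1.05 FPKM in the other 7 libraries. Main results that rest on knockdown libraries 1 and 4 are given with and without them.

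None of the 44 markers differed between the groups at an adjusted p under 0.05, and none of the 13004 tested genes did either (0.0%, limma on log2(FPKM + 1), Benjamini-Hochberg over all genes, smallest adjusted p = 0.266). An unadjusted p under 0.05 was found for 4 of 44 markers, or 9.09%, against 14.2% of all genes. Lmo4 was the 1 that was higher, against 9.1% of all genes, and Pcp4, Pou3f1 and Foxp1 were the 3 that were lower, against 5.07% of all genes. No marker had groups that did not overlap, against 9.15% of all genes. The knockdown mean was above the control mean for 24 markers and below it for 20, and the difference was above 0 for 54.9% of all genes. The median log2 difference was 0.04 over the markers and 0.01 over all genes. The share of small p-values among the layer markers was therefore no larger than in the transcriptome at large.

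The markers did vary more between libraries of the same group than most genes. The within-group SD on the log2 scale had a median of 0.32 over the markers and of 0.11 over all genes, and 43 of the 44 markers were above the median of all genes. The 10% most variable genes held 28 of the 44 markers. They were 11 of the 12 layer 6 and 6b markers, 9 of the 12 upper-layer markers, 4 of the 11 layer 5 markers and 4 of the 9 markers of several layers. The heat map of all markers by library shows where this spread lay.

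**Figure D1:**
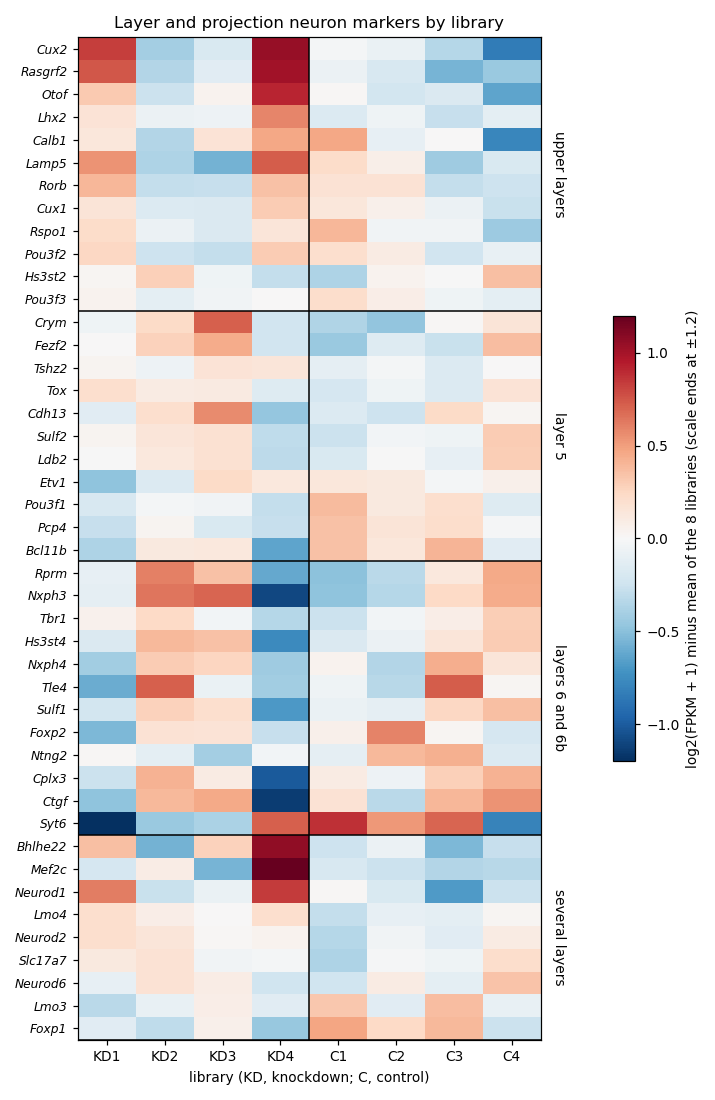
Each row is a marker and each column a library (KD, knockdown; C, control); colour gives log2(FPKM + 1) minus the mean of the 8 libraries. In columns KD1 and KD4 most upper-layer markers are red and most layer 6 and 6b markers blue, and 8 of 12 upper-layer markers are higher in both than in the other 6 libraries.

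Pcp4, Cux2 and Hs3st4 can serve as examples of layer 5, upper layers and layer 6. Pcp4 had the smallest p of all markers, Cux2 the largest positive difference of the upper layers, and Hs3st4 followed the layer 6 library pattern. RefSeq (GRCm38.p6) gives windows of 250 bases before to 50 bases after a gene start for 31 of the 44 markers, 46 windows in all. They are shown to set the start regions of these markers side by side, with CpG dinucleotides in capitals, since gene starts range from CpG-rich to CpG-poor. The windows are Cux2 at chr5:122049802-122050101 (minus strand), its alternative start at chr5:122047776-122048075 (minus strand), Hs3st4 at chr7:123982578-123982877 (plus strand) and Pcp4 at chr16:96467356-96467655 (plus strand).
Cux2: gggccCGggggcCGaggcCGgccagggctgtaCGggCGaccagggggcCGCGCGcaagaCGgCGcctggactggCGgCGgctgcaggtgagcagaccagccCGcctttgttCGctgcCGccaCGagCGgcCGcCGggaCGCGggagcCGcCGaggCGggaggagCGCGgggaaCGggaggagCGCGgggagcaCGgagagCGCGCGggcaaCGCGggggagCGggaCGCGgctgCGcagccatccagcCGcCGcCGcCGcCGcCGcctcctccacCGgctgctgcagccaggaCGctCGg
Cux2 alternative start: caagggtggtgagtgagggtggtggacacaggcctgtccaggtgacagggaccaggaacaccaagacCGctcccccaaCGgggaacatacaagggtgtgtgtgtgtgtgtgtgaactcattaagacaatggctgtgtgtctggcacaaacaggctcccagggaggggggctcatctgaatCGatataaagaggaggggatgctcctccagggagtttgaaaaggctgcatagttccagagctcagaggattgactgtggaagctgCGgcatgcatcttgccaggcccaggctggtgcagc
Hs3st4: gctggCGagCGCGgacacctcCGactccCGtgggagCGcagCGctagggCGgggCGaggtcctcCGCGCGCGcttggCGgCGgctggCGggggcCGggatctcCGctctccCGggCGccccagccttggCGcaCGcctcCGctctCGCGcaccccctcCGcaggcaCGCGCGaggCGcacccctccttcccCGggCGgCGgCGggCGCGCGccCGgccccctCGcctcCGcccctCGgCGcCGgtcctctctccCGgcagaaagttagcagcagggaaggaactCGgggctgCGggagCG
Pcp4: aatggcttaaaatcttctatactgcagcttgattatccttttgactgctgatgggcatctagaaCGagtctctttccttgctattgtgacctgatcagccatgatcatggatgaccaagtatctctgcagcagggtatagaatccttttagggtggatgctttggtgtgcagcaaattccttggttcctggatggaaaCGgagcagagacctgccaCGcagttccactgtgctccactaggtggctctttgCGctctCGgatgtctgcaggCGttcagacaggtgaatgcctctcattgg

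The first Cux2 window holds 48 CpGs, a number reached by 1.22% of all 32851 windows, and the Hs3st4 window holds 47, reached by 1.44%. The Pcp4 window holds 6, reached by 56.4%. The median was 17 CpGs over the marker windows and 7 over all windows. Motifs were searched by their letters on both strands. The alternative Cux2 window contains CAGATG, an E-box bound by NEUROD proteins, as its reverse complement CATCTG, then ATCGAT, the letters bound by CUX proteins themselves, and TATAAA, which overlaps ATCGAT by 1 letter. CAGATG is in 17.2% of all windows and in 7 of the 46 marker windows, ATCGAT in 0.925% and in 1, and TATAAA in 13.6% and in 6. A letter match is a description of these windows and not a binding site.

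In the upper layers, 10 of the 12 markers had a higher mean in the knockdown group and 2 a lower one, with a median log2 difference of 0.13. The median was -0.04 with knockdown libraries 1 and 4 both left out, when 5 of the 10 turned to a lower mean, and 0.02 without knockdown library 1 alone. No upper-layer marker had an unadjusted p under 0.05, and the groups overlapped for each. Rasgrf2, a calcium-dependent exchange factor for Ras and Rac (chromosome 13, 91880400 to 92131656, minus strand), measured 15.9, 6.93, 8.21 and 19.3 FPKM in knockdown libraries 1 to 4, against 8.60, 7.83, 5.87 and 6.42 FPKM in control libraries 1 to 4. Knockdown libraries 1 and 4 lay far above all others, while libraries 2 and 3 lay within the control range. Its means of 12.6 ± 5.99 FPKM in the knockdown and 7.18 ± 1.254 FPKM in the control group (SD, n = 4 each) gave a log2 difference of 0.63 ± 0.30 (SE; limma, adjusted p = 0.379), which was 0.08 without knockdown libraries 1 and 4.

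Lhx2, a LIM homeodomain factor of cortical progenitors and upper-layer neurons, had the smallest p of the upper layers. It measured 9.04, 7.59, 7.59 and 12.5 FPKM in the knockdown libraries, against 7.001, 7.66, 6.42 and 7.28 FPKM in the control libraries. Its means of 9.18 ± 2.32 FPKM in the knockdown and 7.09 ± 0.519 FPKM in the control group (SD, n = 4 each) gave a log2 difference of 0.31 ± 0.14 (SE; limma, adjusted p = 0.362). Otof, the calcium sensor otoferlin known from hair cell synapses, measured 2.13, 1.10, 1.59 and 3.74 FPKM in the knockdown libraries, against 1.55, 1.16, 1.24 and 0.626 FPKM in the control libraries. Its means of 2.14 ± 1.15 FPKM in the knockdown and 1.14 ± 0.383 FPKM in the control group (SD, n = 4 each) gave a log2 difference of 0.50 ± 0.25 (SE; limma, adjusted p = 0.392). In both genes the 2 highest values of all 8 libraries were again those of knockdown libraries 1 and 4. Without these libraries the log2 difference was 0.09 for Lhx2 and 0.14 for Otof.

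Cux2, whose protein controls dendrite branching in upper-layer neurons, measured 8.96, 3.24, 3.95 and 10.6 FPKM in the knockdown libraries, against 4.54, 4.33, 3.42 and 2.14 FPKM in the control libraries. Its means of 6.69 ± 3.65 FPKM in the knockdown and 3.61 ± 1.09 FPKM in the control group (SD, n = 4 each) gave a log2 difference of 0.64 ± 0.35 (SE; limma, adjusted p = 0.433), the largest positive one of the 44 markers. Lamp5, a LAMP-family membrane protein that also marks a class of interneurons, measured 41.8, 21.7, 18.9 and 47.9 FPKM in the knockdown libraries, against 33.3, 30.0, 20.9 and 24.9 FPKM in the control libraries, with means of 32.6 ± 14.4 FPKM in the knockdown and 27.3 ± 5.47 FPKM in the control group. Cux2 and Lamp5 fall outside the rule for values by library and were picked with their values known. Without knockdown libraries 1 and 4, the log2 difference of Cux2 was 0.03 and that of Lamp5 turned to -0.39.

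The other upper-layer markers had log2 differences smaller than those of Rasgrf2, Lhx2, Otof and Cux2. Cux1, the paralog of Cux2, averaged 3.38 ± 0.731 FPKM in the knockdown and 3.16 ± 0.50 FPKM in the control group (SD, n = 4 each). The nuclear receptor Rorb, best known from layer 4, averaged 3.90 ± 1.27 and 3.52 ± 0.792 FPKM in the knockdown and control groups. The calcium buffer Calb1, which striatal neurons and interneurons also carry, averaged 18.6 ± 4.39 FPKM in the knockdown and 16.4 ± 5.87 FPKM in the control group. The secreted Wnt enhancer Rspo1 and the heparan sulfate sulfotransferase Hs3st2 lay close between groups. Rspo1 averaged 2.17 ± 0.40 FPKM in the knockdown and 2.08 ± 0.729 FPKM in the control group, and Hs3st2 24.4 ± 4.17 and 24.8 ± 5.25 FPKM. The POU factors Pou3f2 and Pou3f3, which act together in upper-layer neurons, averaged 7.09 ± 1.75 and 15.6 ± 0.76 FPKM in the knockdown group, against 6.95 ± 1.04 and 16.3 ± 1.79 FPKM in the control group.

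In layer 5, 6 of the 11 markers had a higher and 5 a lower mean in the knockdown group, with a median log2 difference of 0.02. Of the 11, 2 or 18.2% were lower at an unadjusted p under 0.05, against 5.07% of all genes lower and 14.2% in both directions. Pcp4, a small calmodulin-binding peptide of subcerebral projection neurons (ENSMUSG00000090223.1, chromosome 16, 96467606 to 96525793, plus strand), was the most abundant marker. It measured 323, 401, 346 and 322 FPKM in knockdown libraries 1 to 4, against 501, 436, 453 and 388 FPKM in control libraries 1 to 4. Of the 4 knockdown libraries, 3 lay below every control library, and library 2 lay above control library 4 alone. Its means of 348 ± 37.0 FPKM in the knockdown and 445 ± 46.6 FPKM in the control group (SD, n = 4 each) gave a log2 difference of -0.35 ± 0.095 (SE; limma, unadjusted p = 0.00521, adjusted p = 0.266).

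Pcp4 kept an unadjusted p under 0.05 with each of the 8 libraries left out in turn, with log2 differences from -0.42 to -0.29. Striatal projection neurons also carry Pcp4, and the striatal sums given above were lowest in knockdown libraries 1 and 4. Once each library's striatal score was a covariate, the log2 difference was -0.22 (limma, unadjusted p = 0.0216, adjusted p = 0.612). With knockdown libraries 1 and 4 both left out, the Pcp4 log2 difference was -0.25 (limma, unadjusted p = 0.0584).

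Pou3f1, a POU factor of layer 5 neurons, measured 8.94, 10.1, 9.99 and 8.31 FPKM in the knockdown libraries, against 13.8, 11.3, 12.1 and 9.19 FPKM in the control libraries. All 4 knockdown libraries lay below 3 of the control libraries, and the control library that overlapped them was library 4. Its means of 9.34 ± 0.869 FPKM in the knockdown and 11.6 ± 1.90 FPKM in the control group (SD, n = 4 each) gave a log2 difference of -0.27 ± 0.11 (SE; limma, unadjusted p = 0.0387, adjusted p = 0.334). It was -0.09 with the striatal covariate and -0.17 without knockdown libraries 1 and 4 (limma, unadjusted p = 0.248). With each library left out in turn, Pou3f1 had an unadjusted p under 0.05 in 3 of 8 fits, with a highest p of 0.101 (limma). Tshz2, a zinc finger homeobox gene of layer 5, measured 2.53, 2.31, 2.87 and 2.83 FPKM in the knockdown libraries, against 2.21, 2.40, 2.09 and 2.47 FPKM in the control libraries. Its means were 2.64 ± 0.263 FPKM in the knockdown and 2.29 ± 0.176 FPKM in the control group (limma, log2 difference 0.14 ± 0.07, adjusted p = 0.39).

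The factors that specify layer 5 output neurons had means that moved in different directions. Fezf2, the selector gene of subcerebral neurons, averaged 15.4 ± 3.30 FPKM in the knockdown and 12.9 ± 3.65 FPKM in the control group. Bcl11b, which acts downstream of Fezf2 and is also abundant in striatal neurons, averaged 18.0 ± 4.73 FPKM in the knockdown and 23.5 ± 4.08 FPKM in the control group (SD, n = 4 each). The lowest Bcl11b values of the 8 libraries, 12.7 and 15.4 FPKM, were those of knockdown libraries 4 and 1. The Bcl11b log2 difference was -0.38, but -0.07 without these libraries and -0.05 with the striatal covariate. That of Fezf2 was 0.25, and 0.48 and 0.21 in the same settings. Etv1, an ETS factor of layer 5, averaged 5.73 ± 1.42 FPKM in the knockdown and 6.31 ± 0.364 FPKM in the control group, and Tox, an HMG-box factor, 5.96 ± 0.699 and 5.39 ± 0.751 FPKM. None of these passed the threshold.

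Among the remaining layer 5 markers, Crym, a thyroid hormone-binding protein, averaged 25.6 ± 8.05 FPKM in the knockdown and 19.8 ± 4.27 FPKM in the control group. Cdh13, a cadherin without a cytoplasmic tail, averaged 8.87 ± 3.01 and 8.06 ± 1.35 FPKM in the knockdown and control groups. Sulf2, a sulfatase that trims heparan sulfate, averaged 20.5 ± 3.07 FPKM in the knockdown and 20.2 ± 3.52 FPKM in the control group. Ldb2, a LIM-domain cofactor, was the closest of the 4, with 21.1 ± 3.21 and 21.2 ± 3.33 FPKM in the knockdown and control groups.

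In layers 6 and 6b, 10 of the 12 markers had a lower mean in the knockdown group and 2 a higher one, with a median log2 difference of -0.20. None had an unadjusted p under 0.05. With knockdown libraries 1 and 4 both left out, the median was 0.18, and 8 of the 10 lower markers turned to a higher mean. Ntng2 and Syt6 did not turn, with log2 differences of -0.40 and -0.73 in that setting. Ntng2, the membrane-anchored presynaptic adhesion protein netrin-G2, had the smallest p of the group. It measured 5.50, 4.96, 3.84 and 5.28 FPKM in the knockdown libraries, against 4.98, 7.44, 7.68 and 4.75 FPKM in the control libraries. Its means were 4.90 ± 0.738 FPKM in the knockdown and 6.21 ± 1.56 FPKM in the control group (limma, log2 difference -0.27 ± 0.16, adjusted p = 0.46). Its high values were those of control libraries 2 and 3.

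Cplx3, a complexin that regulates vesicle fusion and marks layer 6b and some interneurons, measured 5.31, 9.11, 7.11 and 2.77 FPKM in the knockdown libraries, against 7.12, 6.25, 8.25 and 9.11 FPKM in the control libraries. Its means were 6.08 ± 2.70 FPKM in the knockdown and 7.68 ± 1.26 FPKM in the control group (limma, log2 difference -0.37 ± 0.28, adjusted p = 0.554). The 2 lowest libraries were knockdown 4 and 1. Ctgf, a secreted matrix protein of layer 6b, measured 10.5, 19.96, 21.05 and 6.30 FPKM in the knockdown libraries, against 17.1, 11.8, 20.1 and 22.4 FPKM in the control libraries, with means of 14.4 ± 7.21 FPKM in the knockdown and 17.8 ± 4.58 FPKM in the control group. Hs3st4, a heparan sulfate sulfotransferase of layer 6, measured 26.9, 40.1, 39.0 and 17.4 FPKM in the knockdown libraries, against 26.9, 28.9, 33.8 and 37.7 FPKM in the control libraries, with means of 30.9 ± 10.8 FPKM in the knockdown and 31.8 ± 4.87 FPKM in the control group. Ctgf and Hs3st4, chosen after their values were seen, show the same picture of 2 knockdown libraries at or below the bottom of the control range and 2 near or above its top.

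The neurexophilins Nxph3 and Nxph4, secreted ligands of alpha-neurexins, also split by library. Nxph3 measured 19.5, 33.4, 34.6 and 9.31 FPKM in the knockdown libraries, against 14.8, 16.4, 24.9 and 29.0 FPKM in the control libraries, so that the knockdown group held both its highest and its lowest values (also chosen after its values were seen). Its means were 24.2 ± 12.1 FPKM in the knockdown and 21.3 ± 6.80 FPKM in the control group. Nxph4 averaged 4.21 ± 1.44 FPKM in the knockdown and 4.66 ± 1.24 FPKM in the control group. Tbr1, the T-box factor that specifies corticothalamic neurons, averaged 34.1 ± 5.68 FPKM in the knockdown and 35.1 ± 5.78 FPKM in the control group, and Tle4, a Groucho-family corepressor of layer 6, 13.8 ± 6.61 and 15.4 ± 5.60 FPKM. These regulators differed by less than their spread between libraries.

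Foxp2, a forkhead factor of layer 6 and striatum, averaged 1.18 ± 0.512 FPKM in the knockdown and 1.57 ± 0.64 FPKM in the control group. Rprm, known as a mediator of cell cycle arrest, averaged 65.5 ± 23.1 FPKM in the knockdown and 59.2 ± 18.0 FPKM in the control group, and the sulfatase Sulf1 3.59 ± 1.32 and 4.20 ± 0.859 FPKM. Syt6, a synaptotagmin of layer 6, stood apart from the rest of its group. It measured 1.54, 3.26, 3.46 and 8.51 FPKM in the knockdown libraries, against 9.61, 7.33, 8.41 and 2.33 FPKM in the control libraries. Its means were 4.19 ± 3.004 FPKM in the knockdown and 6.92 ± 3.20 FPKM in the control group (limma, log2 difference -0.65 ± 0.47, adjusted p = 0.542). Knockdown library 4 lay at the level of the control libraries and control library 4 at that of the knockdown libraries.

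**Figure D2:**
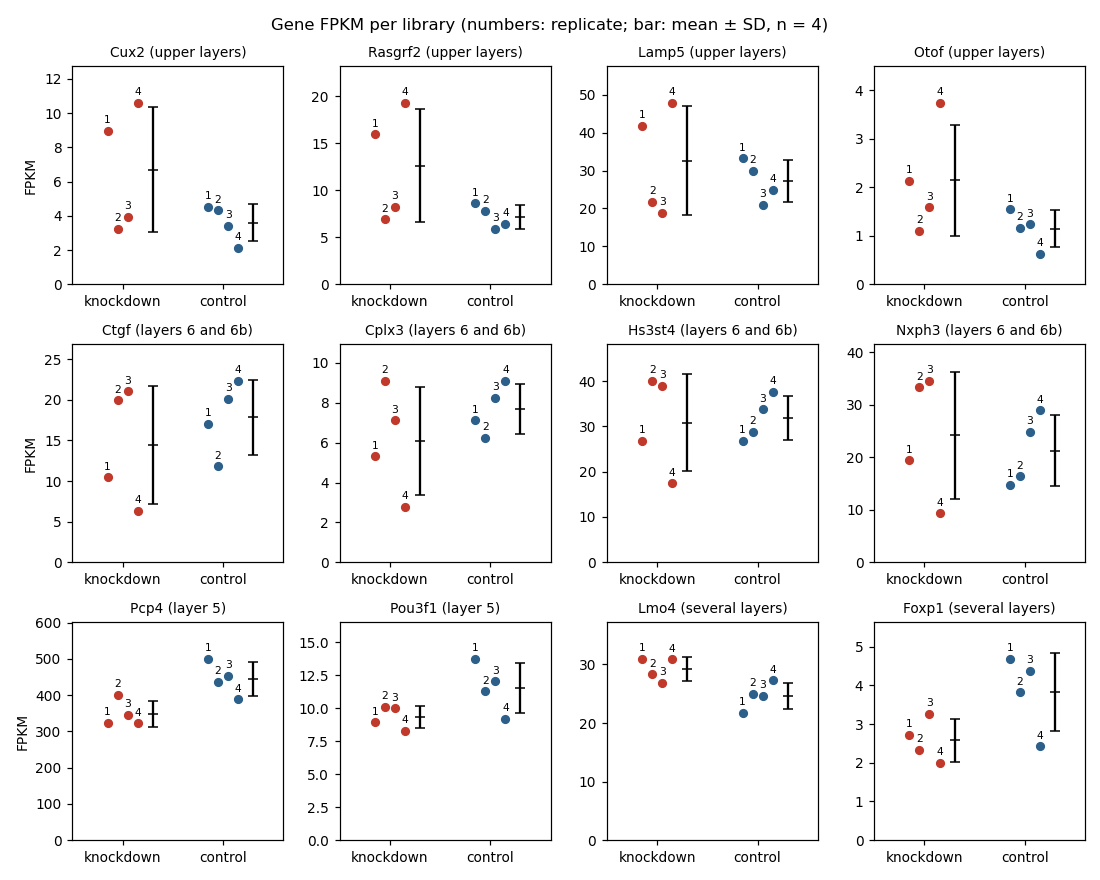
FPKM of 12 markers in each library (points, numbered by replicate), with the mean ± SD of 4 libraries as a bar beside them, knockdown left of control. In the upper-layer panels knockdown libraries 1 and 4 are the 2 highest points of 8, and in the panel of Pcp4 3 of 4 knockdown libraries lie below every control library.

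Among markers of several layers, 6 of 9 had a higher and 3 a lower mean in the knockdown group, with a median log2 difference of 0.20. Slc17a7, the vesicular glutamate transporter VGLUT1 of nearly all cortical excitatory neurons, measured 143, 149, 128 and 129.9 FPKM in the knockdown libraries, against 102, 131, 127 and 153 FPKM in the control libraries. All 8 libraries were thus rich in cortical excitatory RNA. Its means of 137 ± 10.4 FPKM in the knockdown and 128 ± 20.9 FPKM in the control group (SD, n = 4 each) gave a log2 difference of 0.11 ± 0.11 (SE; limma, adjusted p = 0.662).

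Lmo4, a LIM-only adaptor of callosal and other projection neurons (chromosome 3, 144188530 to 144205220, minus strand), was the 1 marker above the control group at an unadjusted p under 0.05. It measured 31.0, 28.3, 26.8 and 30.9 FPKM in knockdown libraries 1 to 4, against 21.8, 24.9, 24.6 and 27.3 FPKM in control libraries 1 to 4. Of the 4 knockdown libraries, 3 lay above every control library. Its means of 29.3 ± 2.04 FPKM in the knockdown and 24.7 ± 2.26 FPKM in the control group (SD, n = 4 each) gave a log2 difference of 0.24 ± 0.08 (SE; limma, unadjusted p = 0.0121, adjusted p = 0.271), and it kept an unadjusted p under 0.05 with each of the 8 libraries left out in turn. It was 0.13 with the striatal covariate (unadjusted p = 0.0515) and 0.16 without knockdown libraries 1 and 4 (unadjusted p = 0.111), both by limma.

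Foxp1, a forkhead factor of layers 3 to 5 and of striatal neurons, measured 2.72, 2.33, 3.27 and 1.99 FPKM in the knockdown libraries, against 4.70, 3.83, 4.38 and 2.43 FPKM in the control libraries. Control library 4 was the only control library that fell among the knockdown libraries. Its means of 2.58 ± 0.549 FPKM in the knockdown and 3.83 ± 1.00 FPKM in the control group (SD, n = 4 each) gave a log2 difference of -0.42 ± 0.17 (SE; limma, unadjusted p = 0.0387, adjusted p = 0.334). It was -0.15 with the striatal covariate (unadjusted p = 0.217) and -0.33 without knockdown libraries 1 and 4 (unadjusted p = 0.181), both by limma. With each library left out in turn, Foxp1 had an unadjusted p under 0.05 in 2 of 8 fits, with a highest p of 0.102 (limma). Its order across the control libraries followed that of the striatal sums, highest in libraries 1 and 3 and lowest in library 4. Across the knockdown libraries it did not, since Foxp1 was higher in library 1 than in library 2 and the striatal sum lower. The part of striatal RNA in Foxp1 was not tested.

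Neurod2, a basic helix-loop-helix factor of excitatory neurons, measured 35.9, 34.3, 31.3 and 31.9 FPKM in the knockdown libraries, against 24.3, 30.1, 28.1 and 33.3 FPKM in the control libraries. Its means were 33.4 ± 2.12 FPKM in the knockdown and 29.0 ± 3.78 FPKM in the control group (limma, log2 difference 0.20 ± 0.09, adjusted p = 0.358). Its relatives were less even. Neurod1 averaged 3.49 ± 1.61 FPKM in the knockdown and 1.96 ± 0.562 FPKM in the control group, and Neurod6 54.9 ± 7.03 and 56.9 ± 10.4 FPKM. Bhlhe22, a repressor of the same class in postmitotic neurons, averaged 5.90 ± 3.06 FPKM in the knockdown and 3.35 ± 0.56 FPKM in the control group. The highest Neurod1 and Bhlhe22 values, 5.30 and 9.96 FPKM, were both in knockdown library 4. The next highest, 4.39 and 5.73 FPKM, were in knockdown library 1. Without these libraries the log2 differences were 0.10 and 0.14, in place of 0.55 and 0.57.

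Lmo3, a LIM-only relative of Lmo4, averaged 19.9 ± 2.38 FPKM in the knockdown and 23.8 ± 4.48 FPKM in the control group. Mef2c, an activity-regulated factor that controls synapse number, rested on a single value, and its role in interneurons is also known. It measured 4.89, 6.24, 3.60 and 22.6 FPKM in the knockdown libraries, against 4.95, 4.70, 4.33 and 4.38 FPKM in the control libraries, values given after they were seen. Its group means were 9.34 ± 8.93 FPKM in the knockdown and 4.59 ± 0.289 FPKM in the control group, and without knockdown library 4 its log2 difference was 0.06 in place of 0.56.

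**Figure D3:**
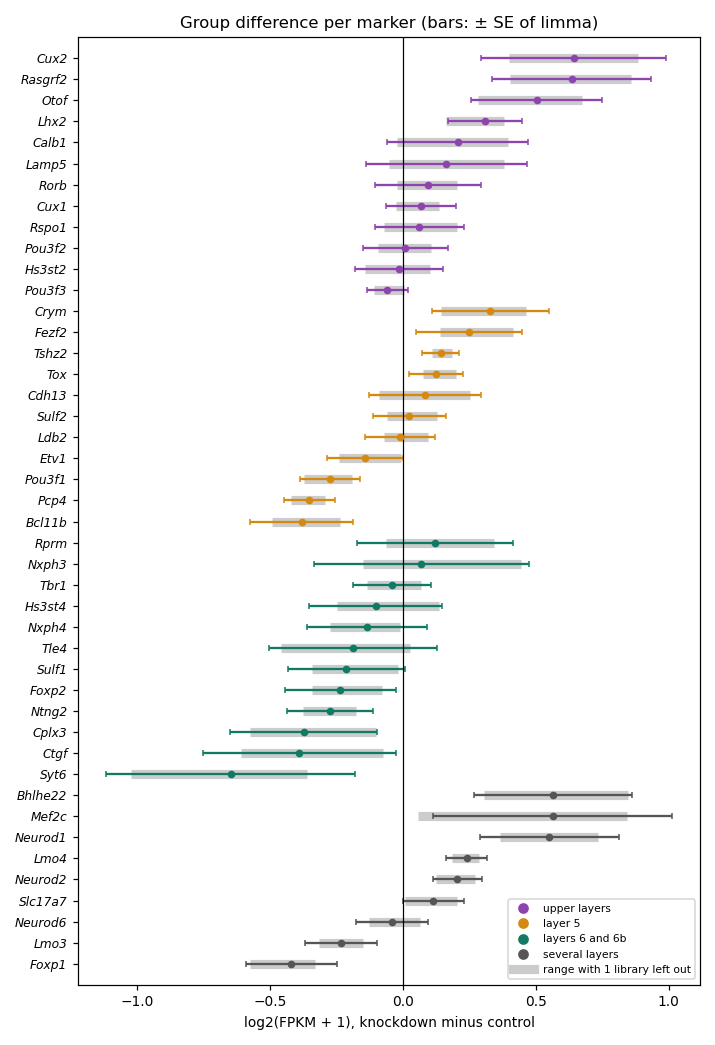
Log2 difference, knockdown minus control, of each marker (points) with its SE (thin bars), and the range when 1 library is left out (grey). Upper-layer markers lie mostly right of 0 and layer 6 and 6b markers mostly left, with medians of 0.13 and -0.20, and the grey ranges of 17 markers cross 0.

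The 2 directions of upper and deep layers were carried by the same libraries. Knockdown libraries 1 and 4 were both above the other 6 libraries in 8 of the 12 upper-layer markers. These were Cux1, Cux2, Lamp5, Lhx2, Otof, Pou3f2, Rasgrf2 and Rorb. The same held for Bhlhe22, Lmo4 and Neurod1 of several layers, and so for 11 of all 44, against 9.7% of all genes. Both libraries were below the other 6 in 7 of the 12 layer 6 and 6b markers. These were Cplx3, Ctgf, Foxp2, Hs3st4, Nxph4, Sulf1 and Tle4. So it was for Bcl11b, Pcp4 and Pou3f1 of layer 5 and Lmo3 of several layers. That made 11 of all 44, against 8.71% of all genes. Knockdown library 4 was the highest of the 8 in 8 of 12 upper-layer markers, against 28.4% of all genes, and the lowest in 8 of 12 layer 6 and 6b markers, against 20.8% of all genes. Control library 4 was the lowest in 6 of 12 upper-layer markers, against 12.8% of all genes. These counts describe a pattern seen in the data, and the 2 libraries are not a group of the study.

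A score for each layer group was the mean deviation of its markers on the log2 scale from their means over the 8 libraries. The upper-layer score was 0.32, -0.20, -0.15 and 0.47 in knockdown libraries 1 to 4, against 0.10, -0.01, -0.21 and -0.32 in control libraries 1 to 4. The layer 6 and 6b score was -0.33, 0.30, 0.14 and -0.51 in the knockdown libraries, against -0.03, -0.04, 0.32 and 0.15 in the control libraries. The 2 scores had opposite signs in every knockdown library, and the wide spread within the knockdown group covered the control values in both, apart from control libraries 3 and 4 in the upper layers and control library 3 in layers 6 and 6b. The layer 5 score was -0.11, 0.09, 0.23 and -0.24 in the knockdown libraries, against -0.04, -0.04, 0.03 and 0.10 in the control libraries, and it sided with layer 6 in all 4 knockdown libraries.

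Scores of genes that mark tissue beside or below the cortical layers were set beside these. The oligodendrocyte score was -0.41, 0.22, 0.38 and -0.68 in the knockdown libraries, against 0.17, -0.07, 0.29 and 0.10 in the control libraries. It had the sign of the layer 6 and 6b score in all 4 knockdown libraries. The striatal score was -0.72, 0.04, 0.29 and -1.12 in the knockdown libraries, against 0.95, 0.36, 0.81 and -0.62 in the control libraries. It had the sign of the layer 6 and 6b score in all 4 knockdown libraries, and the opposite sign in control libraries 1, 2 and 4. The 6 tested genes of the claustrum and endopiriform nucleus scored -0.05, -0.11, -0.13 and -0.39 in the knockdown libraries, against 0.28, 0.13, 0.38 and -0.10 in the control libraries. All 6 had a lower mean in the knockdown group, and their score did not follow the layer scores in knockdown libraries 2 and 3. Of the 6, 2 or 33.3% were lower at an unadjusted p under 0.05, against 5.07% of all genes lower and 14.2% in both directions. Under the striatal covariate, the median log2 difference was 0.08 in the upper layers and -0.04 in layers 6 and 6b. The part of dissection depth in the layer differences was not tested.

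**Figure D4:**
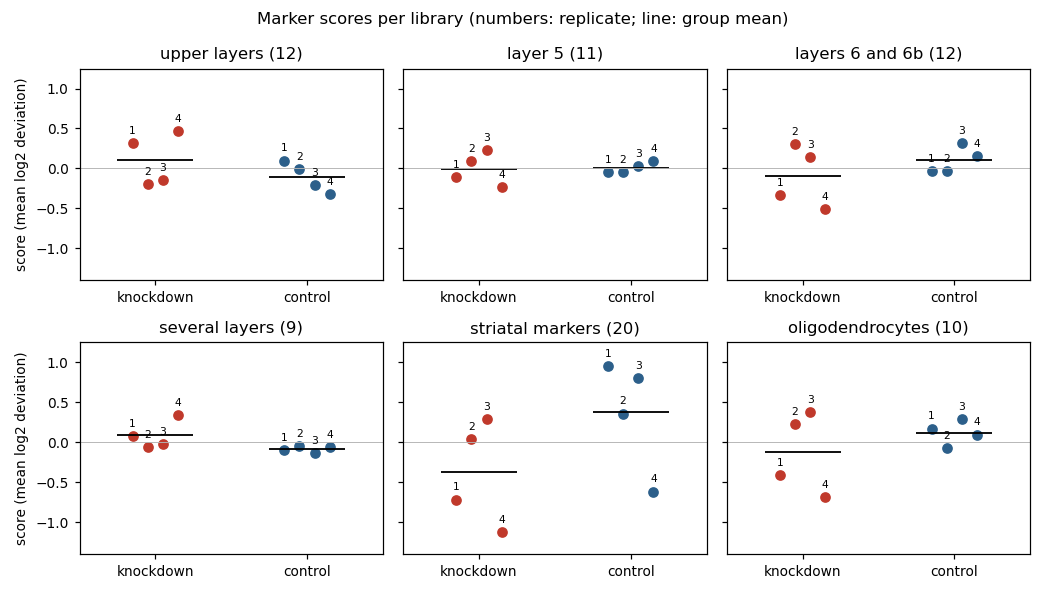
Marker scores in each library (points, numbered by replicate; lines, group means), knockdown left of control, for the 4 layer groups and for striatal and oligodendrocyte markers; the y axis is the mean log2 deviation. Knockdown libraries 1 and 4 lie high in upper layers, at 0.32 and 0.47, and low in layers 6 and 6b, oligodendrocytes and striatal markers.

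Markers with a second home were looked at apart. Of the 7 that striatal projection neurons also carry, which are Bcl11b, Foxp1, Foxp2, Pcp4, Calb1, Crym and Lmo4, 3 were higher and 4 lower, with a median log2 difference of -0.24. An unadjusted p under 0.05 was found for 3 of the 7, or 42.9%, against 14.2% of all genes. Of these, 2 were lower, Pcp4 and Foxp1, against 5.07% of all genes. The other 1, Lmo4, was higher, against 9.1% of all genes, whereas all 20 striatal genes were lower. Of the 6 that cortical interneurons also carry, which are Calb1, Lamp5, Cplx3, Mef2c, Crym and Tox, 5 were higher and 1 was lower, and none had an unadjusted p under 0.05. Of the 15 interneuron genes themselves, 10 were higher and 5 lower in the knockdown group, with a median log2 difference of 0.05. Of the 15, 1 or 6.67% was higher at an unadjusted p under 0.05 (limma), against 9.1% of all genes, and none was lower. The groups did not overlap in 2, both higher, against 9.15% of all genes in both directions.

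Layer genes outside the 44 were counted from a second list of 12 for each layer. In the upper layers 11 were tested, 7 higher and 4 lower in the knockdown group, with a median log2 difference of 0.11, and knockdown libraries 1 and 4 were both above the other 6 libraries in 5 of them. In layers 6 and 6b 12 were tested, 5 higher and 7 lower, with a median of -0.06, and the same libraries were both below the others in 3. In layer 5 11 were tested, 5 higher and 6 lower, with a median of -0.09, and the same libraries were both above the others in 1 and both below in 2. Over all genes these shares were 9.7% above and 8.71% below, and those of the layer 5 genes were 9.09% above and 18.2% below.

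Of these 34 tested genes, 6 or 17.6% had an unadjusted p under 0.05, against 14.2% of all genes, and none passed the adjusted threshold (limma). The groups did not overlap in 3, or 8.82%, against 9.15% of all genes. In layer 5 the genes at an unadjusted p under 0.05 were Fam84b, Deptor, Parm1 and Slc17a8, all lower in the knockdown group. Deptor, an inhibitor of mTOR kinase, measured 5.41, 5.53, 4.55 and 5.49 FPKM in the knockdown libraries, against 6.32, 6.71, 5.56 and 7.33 FPKM in the control libraries, with no overlap (limma, log2 difference -0.26 ± 0.09, adjusted p = 0.283). Sox5, an SRY-box factor that controls the timing of deep-layer neuron generation, measured 2.82, 3.001, 2.63 and 2.27 FPKM in the knockdown libraries, against 3.19, 3.29, 3.23 and 3.59 FPKM in the control libraries, also with no overlap (limma, log2 difference -0.24 ± 0.07, adjusted p = 0.266). Fam84b did not overlap either. Among upper-layer genes, the neuropeptide precursor Cartpt averaged 2.23 ± 0.583 FPKM in the knockdown and 1.55 ± 0.207 FPKM in the control group.

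The transcript table listed 106 transcripts of 43 markers and none of Otof, and 96 of the 106 were tested. No marker transcript passed the adjusted threshold, and 6 of 23415 transcripts did (0.0256%; limma, smallest adjusted p among marker transcripts = 0.565). An unadjusted p under 0.05 was found for 7 of the 96, against 7.96% of all transcripts. Of these, 3 were higher, against 4.2% of all transcripts, and 4 lower, against 3.76%. The lower ones were the single listed transcript of Pcp4, Bcl11b-203, Ntng2-204 and Mef2c-202, and the higher ones Lmo4-202, Cux2-202 and Mef2c-214. The groups did not overlap for Lmo4-202 and Mef2c-214, against 5.7% of all transcripts in both directions and 3.04% higher in the knockdown group.

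Lmo4-202 measured 7.14, 6.09, 6.79 and 10.2 FPKM in the knockdown libraries, against 3.83, 4.70, 4.36 and 4.26 FPKM in the control libraries. The log2 difference was 0.68 ± 0.15 (SE; limma, unadjusted p = 0.00184, adjusted p = 0.565). It made up 10.1% to 15.3% of the summed Lmo4 transcripts in the knockdown libraries and 7.32% to 8.67% in the control libraries. Mef2c-214, a low transcript, averaged 1.05 ± 0.145 FPKM in the knockdown and 0.521 ± 0.357 FPKM in the control group. Ntng2-204 averaged 5.91 ± 1.06 FPKM in the knockdown and 9.22 ± 2.41 FPKM in the control group, and Bcl11b-203 4.54 ± 1.28 and 6.65 ± 1.06 FPKM, both in the direction of their genes.

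Several markers had transcripts whose values jumped between libraries of the same group. Cux2-202 measured 10.1, 1.53, 4.34 and 5.43 FPKM in the knockdown libraries, against 1.91, 1.79, 1.30 and 1.77 FPKM in the control libraries. Cux2-210 measured 0.056, 3.36, 0.154 and 12.2 FPKM in the knockdown libraries, against 5.88, 5.61, 4.62 and 1.02 FPKM in the control libraries, opposite in direction to its gene (limma, log2 difference -0.72, adjusted p = 0.818). Both transcripts code for the same number of amino acids in GENCODE M21, and where either was low the other was mostly high. As deposited, the high Cux2 sum of knockdown library 1 was assigned mostly to Cux2-202, and that of knockdown library 4 mostly to Cux2-210.

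Syt6-202 made up the Syt6 pattern described above. It measured 0.321, 0.402, 0.225 and 10.6 FPKM in the knockdown libraries, against 10.3, 8.31, 9.33 and 0 FPKM in the control libraries, so the libraries numbered 4 lay on the other side of each group. Mef2c-201 measured 3.74, 9.71, 0 and 51.5 FPKM in the knockdown libraries and 1.91 to 3.07 FPKM in the control libraries, and it was 82.4% of the summed Mef2c transcripts in knockdown library 4. Cux1-207 measured 14.3 FPKM in knockdown library 4 and 8.84 FPKM in control library 4, and 2.13 to 3.29 FPKM in the other 6 libraries. These 3 transcripts, and Fezf2-201 below, were chosen after their values were seen, and the part of transcript assignment in the jumps was not tested.

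Mef2c-202 measured 0, 0, 0.023 and 0 FPKM in the knockdown libraries, against 3.12, 1.94, 2.55 and 0 FPKM in the control libraries (limma, log2 difference -1.35 ± 0.42, adjusted p = 0.565). With control library 4 left out the log2 difference was -1.80 and it passed the threshold (limma, adjusted p = 0.00967). Mef2c-225 measured 5.87 FPKM in control library 1 and between 0.220 and 0.348 FPKM in the other 7 libraries. Fezf2-203 measured 1.57, 1.93, 2.42 and 1.82 FPKM in the knockdown libraries, against 5.10, 10.96, 1.34 and 1.97 FPKM in the control libraries, while Fezf2-201, with the same coding length, was lowest in the 2 control libraries where Fezf2-203 was high, at 6.61 and 3.73 FPKM. Fezf2-202 averaged 1.09 ± 0.468 FPKM in the knockdown and 1.54 ± 0.26 FPKM in the control group, and Sulf1-204 1.26 ± 0.895 and 0.738 ± 0.859 FPKM. Both had the opposite sign to their gene, and neither passed the threshold.

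**Figure D5:**
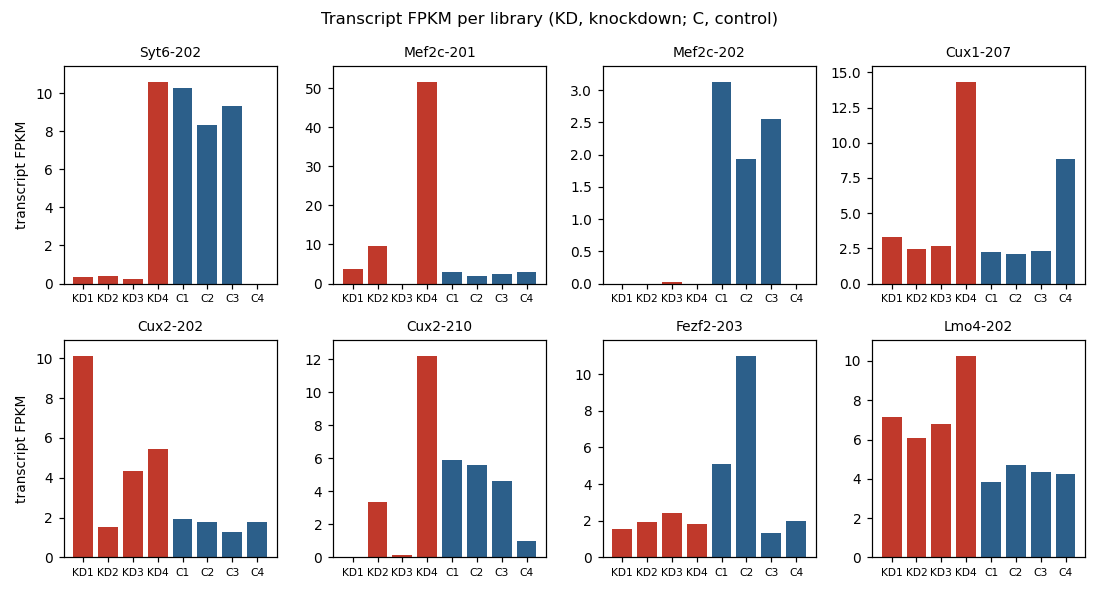
FPKM of 8 marker transcripts in each library as bars from 0, knockdown libraries (KD) left of control libraries (C). Lmo4-202 is above 6 FPKM in every knockdown library and below 5 FPKM in every control library, whereas Syt6-202 is near 0 in knockdown libraries 1 to 3 and in control library 4.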

How the data were processed

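Total RNA of orbital frontal cortex was made into 8 stranded libraries, 4 knockdown and 4 control, per the labels' protocols. The authors deposited a gene and a transcript table in FPKM, per the file headers. The submitters' processing notes name StringTie, HISAT2, cutadapt and FastQC with no version. What build and annotation they used is not given in the sources used here. Among the 13130 genes, 11493 had their identifier and version in GENCODE M21, all with identical coordinates (42 of the 44 markers among them), so coordinates are on GRCm38. FPKM carry no read counts, so depth is unknown and no counting interval is given. StringTie divides reads between transcripts by estimate, so an exact 0 can be a failed estimate and overlapping transcripts trade reads.

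Values were taken to log2(FPKM + 1), a scale that understates changes of low genes. Features averaging 0.5 FPKM or more (13004 genes and 23415 transcripts) were tested with limma 3.58.1 in R 4.3.3 (trend and robust empirical Bayes, two-sided, Benjamini-Hochberg adjusted p under 0.05), and the code was tested on simulated data. The markers, layer groups and other lists were chosen with earlier results of these data known, so lists are described by counts and medians without a test. Every marker is given with its group means. Values by library are given for Slc17a7, for markers at an unadjusted p under 0.05 and for the 3 of smallest p in each layer group. Transcripts are named for markers with 2 or more listed transcripts that average at least 1 FPKM. They are named at an unadjusted p under 0.05, or with a sign opposite to their gene and a log2 size of at least 0.3. Fam84b, Deptor, Parm1, Slc17a8, Sox5, Cartpt and Cdhr1 fall outside these rules and were picked with their values known. Alternatives covered the pseudocount (0.1 FPKM), filters (none, 2 FPKM), median-of-ratios rescaling, quantile normalization, plain empirical Bayes, a replicate block, a striatal covariate, summed transcripts and each library left out. Leaving out knockdown libraries 1 and 4 together was chosen after seeing the data.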

Additional observations from a re-analysis of the deposited data

Results flagged for a closer look

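In 118 groups of 4 libraries looked at, 3 held a value far from the others by Dixon's criterion. Chance alone meets it in about 1 of 20 groups, so these 3 are no more than chance would give. The groups did not cover every marker transcript. The jumps described above for transcripts of Syt6 and Cux1 were not among them, so the count does not speak for all transcripts. Mef2c stood at 22.64 FPKM in knockdown library 4, with the other 3 knockdown libraries between 3.602 and 6.243 FPKM. Mef2c-202 stood at 0.02341 FPKM in knockdown library 3, with the other 3 knockdown libraries at 0, a difference near the bottom of the scale. Mef2c-225 stood at 5.871 FPKM in control library 1, with the other 3 control libraries between 0.2198 and 0.2995 FPKM.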

How the results depend on the processing

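No marker passed the adjusted threshold under any setting. Genes past it numbered 0 to 2 with each library left out and 6 without knockdown libraries 1 and 4; transcripts 9 to 22 and 39, marker transcripts 0 to 1. At an unadjusted p under 0.05 there were 1199 to 2173 genes, 2 to 11 markers (2 without control 1, control 3, knockdown 1 or knockdown 4; 11 without knockdown 2) and 4 to 14 marker transcripts with 1 library left out, and 1055 genes, 1 marker (Pcp4) and 2 marker transcripts with the striatal covariate. Without knockdown libraries 1 and 4, 1372 of 13004 genes and 4 markers had an unadjusted p under 0.05 (limma). These markers were Crym, Cdh13, Hs3st4 and Nxph3, with log2 differences of 0.64, 0.425, 0.32 and 0.70. None of them had an unadjusted p under 0.05 with all libraries. The median log2 difference became 0.18 in layers 6 and 6b and -0.04 in the upper layers without knockdown libraries 1 and 4. With 1 library left out it ran from 0.02 to 0.26 in the upper layers and from -0.31 to -0.05 in layers 6 and 6b.

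Of the 44 markers, 24 kept their direction under every planned setting and 20 turned under at least 1; the cause was not tested. Log2 differences that turned without knockdown libraries 1 and 4 were Cplx3 0.0726, Ctgf 0.23, Cux1 -0.13, Foxp2 0.0546, Hs3st2 0.11, Hs3st4 0.32, Lamp5 -0.39, Ldb2 0.15, Neurod6 0.11, Nxph4 0.22, Pou3f2 -0.26, Rorb -0.24, Rspo1 -0.0911, Sulf1 0.14, Tbr1 0.0828, Tle4 0.23. Those that turned with the striatal covariate were Hs3st4 0.0843, Lamp5 -0.14, Nxph4 0.0889, Pou3f2 -0.13, Rorb -0.0382, Slc17a7 -0.0005, Tle4 0.0916. Pou3f2 turned to -0.0085 with median-of-ratios rescaling and to -0.0086 with quantile normalization, and Etv1 to 0.22 with summed transcripts. Leaving out knockdown library 4 turned 9 markers and control library 4 turned 8, each of the other libraries 1 to 4. With each library left out, those that crossed 0 ran from -0.0205 to 0.40 for Calb1, -0.0899 to 0.25 for Cdh13, -0.0244 to 0.14 for Cux1, -0.14 to 0.10 for Hs3st2, -0.25 to 0.14 for Hs3st4, -0.0531 to 0.38 for Lamp5, -0.0717 to 0.0932 for Ldb2, -0.80 to 0.035 for Mef2c-225, -0.13 to 0.0652 for Neurod6, -0.15 to 0.45 for Nxph3, -0.0926 to 0.10 for Pou3f2, -0.11 to 0.0025 for Pou3f3, -0.0231 to 0.21 for Rorb, -0.0632 to 0.34 for Rprm, -0.0729 to 0.20 for Rspo1, -0.0582 to 0.13 for Sulf2, -0.13 to 0.0667 for Tbr1 and -0.46 to 0.0257 for Tle4.

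Libraries of the same number did not deviate together over all genes (correlations -0.18, -0.07, 0.20 and -0.02 for numbers 1 to 4), and 1 number of the 4, number 3, correlated best with its own. With a replicate block, 7 markers and 11 marker transcripts had an unadjusted p under 0.05, no marker turned, 0 genes and 4 transcripts passed the threshold, and the 4 layer medians were as without it. Unknown depth leaves low markers such as Foxp2 and Otof without a counting error.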
